A study of Homo sapiens with 6 samples.

Results

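The genes described here are 10 components of the autophagy machinery and its cargo receptors: SQSTM1, NBR1, GABARAP, GABARAPL1, MAP1LC3A, ULK1, ATG5, ATG7, BECN1 and TFEB. They were taken by gene name from a list drawn up with earlier results of these data known, and each matched 1 of the 35784 gene rows of the deposited table. All 10 passed the filter on low counts and were among the 20134 genes tested. The study sequenced total RNA of NCI-H1299, an established line from a human lung carcinoma of the non-small cell type, classed in the labels as LUAD (lung adenocarcinoma). There were 3 libraries of IGF2BP3 knockout cells and 3 of control cells, called KO-NC and lenti in the labels. IGF2BP3 is an RNA-binding protein that stabilises messages and reads N6-methyladenosine. Its gene was targeted by CRISPR with 2 designed guide RNAs delivered by lentivirus; which guide a library carries, and what the control virus held, is not given. Infected cells were selected in puromycin at 2.0 µg/ml for 48 h and single-cell colonies were grown up. The labels do not say which colony a library came from. A difference between colonies and an effect of the knockout therefore cannot be told apart, and the p-values rest on the spread between libraries alone, in part possibly technical.

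Autophagy encloses cytoplasm in a double membrane and delivers it to the lysosome. The kinase ULK1 starts the process when nutrients fall, and Beclin 1 (BECN1) then serves in the lipid kinase complex that marks the growing membrane. ATG7 and ATG5 belong to the conjugation systems that attach small ubiquitin-like proteins of the ATG8 family, the LC3 and GABARAP proteins, to that membrane. The receptors SQSTM1 (p62) and NBR1 bind ubiquitinated cargo and ATG8 proteins together and are themselves degraded. TFEB is a transcription factor that switches on autophagy and lysosome genes.

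In the knockout libraries 3 of the 10 messages fell and none (0) rose. They were the ATG8 family member GABARAP, the receptor NBR1 and BECN1, at 66.4%, 68.1% and 78.9% of the control mean. The other 7 did not pass the test, among them SQSTM1, the most abundant of the group, at 94.6% of the control mean. Over all tested genes a fall was called for 11.5%, a rise for 8.21% and a change in either direction for 19.7%. The share of members that fell, 30%, was above the 11.5%, but it rests on 3 genes. That background also depends on the genes counted. Among the 13897 genes with a mean count of at least 100, which include all 10 members, 2229 fell and 1780 rose. Of the members 3 fell in that fit too. Of the 10 log2 fold changes 8 were below 0, with a median of -0.31, against 49.5% below 0 and a median of 0.01 over all tested genes. The groups did not overlap for 5 members, 4 lower and 1 higher in the knockout, against 41.3% of all tested genes. Values are in CPM (counts relative to the TMM-adjusted total of their library), and means are given ± SD over n = 3. The adjusted p-values come from a quasi-likelihood test in edgeR, adjusted by Benjamini-Hochberg over all tested genes, with a threshold of 0.05. In bulk RNA, fewer cells with a message and less of it per cell cannot be told apart.

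**Figure D1:**
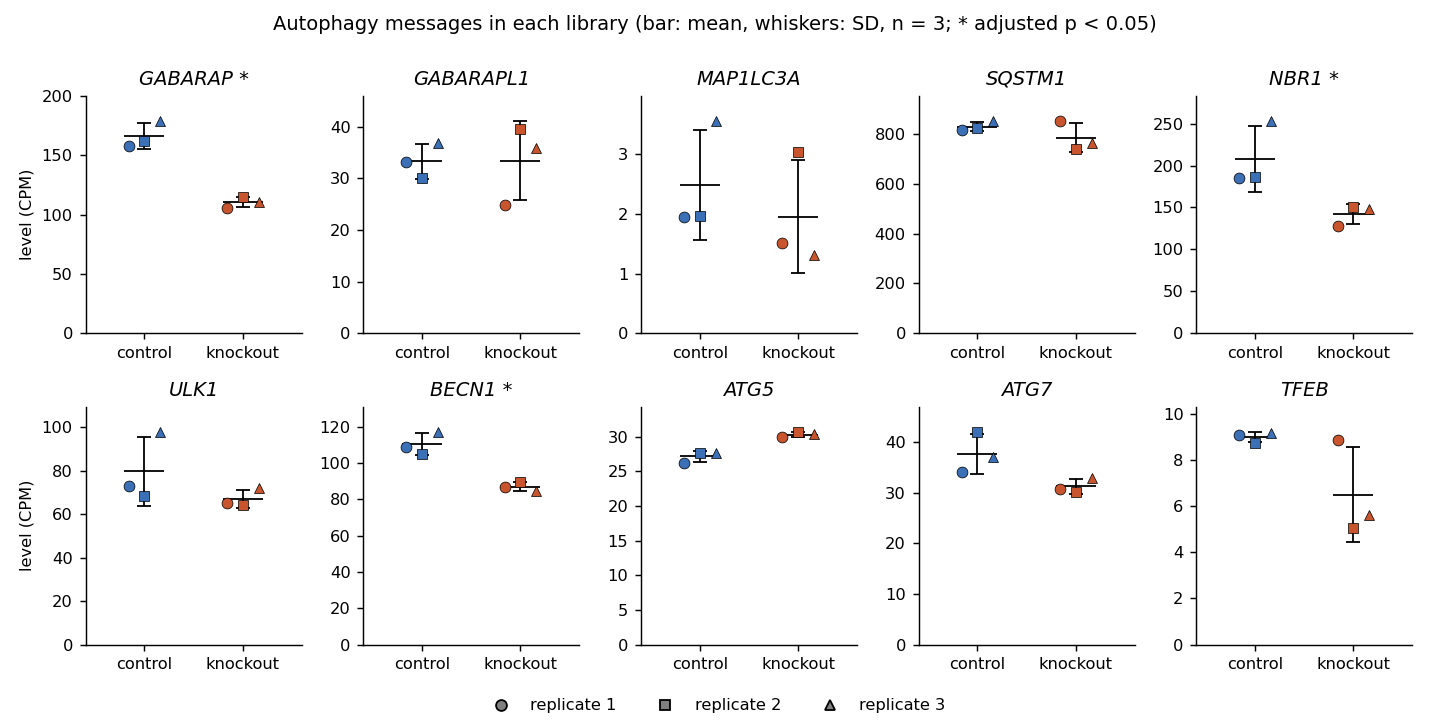
Level in CPM of the 10 autophagy messages in each library; horizontal bars are means, whiskers are SD with n = 3, symbols mark the replicate number and an asterisk an adjusted p under 0.05. GABARAP, NBR1 and BECN1 lie lower in all 3 knockout libraries, ATG5 lies slightly higher, and TFEB splits, with knockout replicate 1 at the control level.

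The libraries held 67674223 to 80810319 counts, and a count of 3, the floor, corresponded to 0.0389 to 0.0435 CPM for counting error only. Message of the targeted gene IGF2BP3 was 58.8, 51.6 and 54.1 CPM in control and 39.9, 25.0 and 22.6 CPM in knockout libraries (log2 fold change -0.91, SE 0.20, adjusted p = 0.017). That call was lost without control replicate 1, 2 or 3 or knockout replicate 2 (adjusted p up to 0.067). Knockout replicate 1 stood apart, with a chi-square per degree of freedom of 98.1 and 106 against the other 2 knockout libraries, which differed from each other by 14.8. Control replicate 3 differed from the other 2 controls by 45.3 and 45.2, and these from each other by 12.2. Chromosomes also differed as blocks: of 948 tested genes of chromosome 16, 374 fell and 6 rose, and of 25 on the Y chromosome 20 rose. None of the 10 members lies on either. Of 8 markers of the lung adenocarcinoma lineage 7 were below 1 CPM in every library (highest 0.736 CPM). The other, NAPSA, fell from 1.58 ± 0.54 to 0.691 ± 0.0914 CPM (adjusted p = 0.04). The 6 epithelial markers summed to 9582 to 10175 CPM in the controls and 5314 to 6529 CPM in the knockout, and 4 of them fell unevenly. KRT19 went from 64.1 ± 4.79 to 0.645 ± 0.112 CPM and KRT18 from 3056 ± 165 to 1715 ± 30.5 CPM (adjusted p = 1.8e-06 and 6.4e-04). KRT8 and CDH1 also fell, and EPCAM and KRT7 did not pass. Markers of leukocytes, endothelium and fibroblasts summed to 41.9 to 49.4 CPM in the controls and 25.9 to 29.9 CPM in the knockout for the 11 of 13 analysed. Of these, 8 were below 1 CPM in every library, PTPRC, CD3E, PECAM1 and CDH5 among them. At that low level the endothelial marker PECAM1 fell, from 0.391 ± 0.126 to 0.0216 ± 0.027 CPM (adjusted p = 0.021), on at most 37 counts a library. The other markers analysed were the leukocyte markers CD68 and CD14 and the fibroblast marker COL1A1. CD68 fell from 20 ± 4.2 to 11 ± 2.3 CPM and CD14 from 15.9 ± 0.783 to 6.29 ± 1.75 CPM (adjusted p = 0.021 and 0.0045). COL1A1 leaned the other way, from 6.68 ± 0.649 to 9.26 ± 1.79 CPM, and did not pass (adjusted p = 0.1). The lower marker sums went with the lower members, and their part in the result was not tested.

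Among the initiation genes, BECN1 (ENSG00000126581, GRCh38 chromosome 17 from 42810134 to 42833332, minus strand) was at 109, 105 and 117 CPM in the controls and 86.6, 89.8 and 84.8 CPM in the knockout. Every knockout library lay below every control, and the knockout values were within a few CPM of each other. The mean fell from 110 ± 5.80 to 87.1 ± 2.56 CPM, with a log2 fold change of -0.34 (SE 0.07) at an adjusted p of 0.014. The call was lost without control replicate 1 (adjusted p = 0.06) and without knockout replicate 3 (adjusted p = 0.061). BECN1 overlaps CNTD1 and the proteasome activator gene PSME3 on the opposite strand, and in GENCODE release 29 they share 795 and 300 of its 6414 exon bases. Since the sources used here do not say whether counting used the strand, reads there cannot be assigned with certainty. CNTD1 held only 1.01 ± 0.0663 CPM (control) and 1.15 ± 0.530 CPM (knockout). PSME3 was at 271 ± 10.1 CPM (control) and 323 ± 37.6 CPM (knockout), a difference of the opposite sign that did not pass (adjusted p = 0.11).

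ULK1 (ENSG00000177169, chromosome 12 from 131894622 to 131923150, plus strand) was at 72.8, 68.3 and 97.6 CPM in the controls and 65.1, 64.2 and 71.8 CPM in the knockout. The groups overlapped, and control replicate 3 was the highest library by a wide margin. The log2 fold change of -0.25 (SE 0.14, adjusted p = 0.25) was -0.08 without control replicate 3 (adjusted p = 0.62).

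Neither conjugation gene passed the test, and they leaned in opposite directions. ATG5, which acts in a complex with ATG12 and ATG16L1 (ENSG00000057663, chromosome 6 from 106045423 to 106325791, minus strand), was at 26.2, 27.6 and 27.6 CPM in the controls and at 29.9, 30.6 and 30.3 CPM in the knockout. The groups did not overlap, but the difference was small and did not pass (log2 fold change 0.16, SE 0.08, adjusted p = 0.19). ATG7, the activating enzyme for both conjugation systems (ENSG00000197548, chromosome 3 from 11272309 to 11557665, plus strand), was at 34.2, 42.0 and 37.1 CPM in the controls and 30.8, 30.1 and 33.0 CPM in the knockout. All 3 knockout values lay below all 3 controls, with a log2 fold change of -0.27 (SE 0.10) that did not pass over the 20134 genes (adjusted p = 0.091). Of the 8833 exon bases of ATG7, 1596 are shared with VGLL4 on the opposite strand. VGLL4 was at 43.3 ± 4.89 CPM (control) and 35.5 ± 0.970 CPM (knockout) (adjusted p = 0.079), so that its reads may contribute to the ATG7 value.

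Of the 3 ATG8 genes among the members, 1 fell. GABARAP, which acts late in the growth and closure of the autophagosome (ENSG00000170296, chromosome 17 from 7240008 to 7242449, minus strand) was at 158, 162 and 179 CPM in the controls and at 106, 115 and 111 CPM in the knockout. The knockout libraries lay close together and well below the lowest control. The mean fell from 167 ± 11.1 to 111 ± 4.53 CPM, with a log2 fold change of -0.59 (SE 0.08) at an adjusted p of 0.002, and the call held in each of the 6 fits that left out 1 library, with adjusted p from 0.0015 to 0.014. An opposite-strand row without a symbol shares 571 of the 2266 exon bases of GABARAP but held only 1.23 ± 0.138 CPM in the controls.

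GABARAPL1, the closest relative of GABARAP (ENSG00000139112, chromosome 12 from 10212458 to 10223128, plus strand), did not follow it. It was at 33.1, 30.0 and 36.8 CPM in the controls and 24.9, 39.6 and 35.9 CPM in the knockout. The knockout libraries spread over the whole control range and beyond it on either side, knockout replicate 1 being the lowest library and replicate 2 the highest. The log2 fold change was 0.01 (SE 0.17, adjusted p = 0.98), with a sign that changed with the setting, from -0.13 without knockout replicate 2 to 0.26 without knockout replicate 1 and control replicate 3. MAP1LC3A, which encodes LC3A (ENSG00000101460, chromosome 20 from 34546854 to 34560345, plus strand), was scarce. It was at 1.94, 1.96 and 3.55 CPM in the controls and 1.51, 3.04 and 1.31 CPM in the knockout, on 101 to 245 counts a library. The highest control and the second knockout library stood out from their groups, and the log2 fold change of -0.34 had an SE of 0.40 (adjusted p = 0.6).

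Of the cargo receptors NBR1 fell and SQSTM1 did not pass. SQSTM1, a scaffold that also sequesters the NRF2 inhibitor KEAP1 (ENSG00000161011, chromosome 5 from 179806398 to 179838078, plus strand), was at 816, 823 and 851 CPM in the controls and 852, 740 and 764 CPM in the knockout. Knockout replicate 1 was at the level of the highest control and the other 2 were below the lowest, and the difference did not pass (log2 fold change -0.08, SE 0.08, adjusted p = 0.57). Of the 7654 exon bases of SQSTM1, 1582 are shared with MRNIP and 105 with MGAT4B, both on the opposite strand. MRNIP was at 30.7 ± 3.11 and 32.3 ± 4.49 CPM (adjusted p = 0.73), and MGAT4B fell from 159 ± 7.62 to 120 ± 13.6 CPM (adjusted p = 0.022). NBR1, which shares its ubiquitin- and LC3-binding design with SQSTM1 (ENSG00000188554, chromosome 17 from 43170481 to 43211689, plus strand), was at 185, 186 and 253 CPM in the controls and 128, 150 and 148 CPM in the knockout. Every knockout library lay below every control. The mean fell from 208 ± 38.7 to 142 ± 12.2 CPM, with a log2 fold change of -0.55 (SE 0.14) at an adjusted p of 0.026. Control replicate 3 carried part of the size: without it the log2 fold change was -0.39, still past the threshold (adjusted p = 0.042). The call was lost without knockout replicate 2 (adjusted p = 0.063), without knockout replicate 3 (adjusted p = 0.064) and when low counts were not filtered (adjusted p = 0.053). The difference between the fold changes of NBR1 and SQSTM1 was not tested.

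TFEB (ENSG00000112561, chromosome 6 from 41683978 to 41736259, minus strand) was at 9.07, 8.75 and 9.15 CPM in the controls and at 8.86, 5.04 and 5.61 CPM in the knockout. The controls were nearly equal, and the knockout group split, replicate 1 sitting within the control range and replicates 2 and 3 well below it. As a group the difference did not pass (log2 fold change -0.47, SE 0.22, adjusted p = 0.19). This rested on 1 library: without knockout replicate 1 the log2 fold change was -0.75 and passed (adjusted p = 0.0088). Knockout replicate 1 was also the library in which IGF2BP3 message remained highest, at 39.9 CPM against 25.0 and 22.6 CPM. Among the other members it was the highest knockout library for SQSTM1 but the lowest for GABARAP, NBR1, GABARAPL1 and ATG5. A link to the level of IGF2BP3 was not tested.

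**Figure D2:**
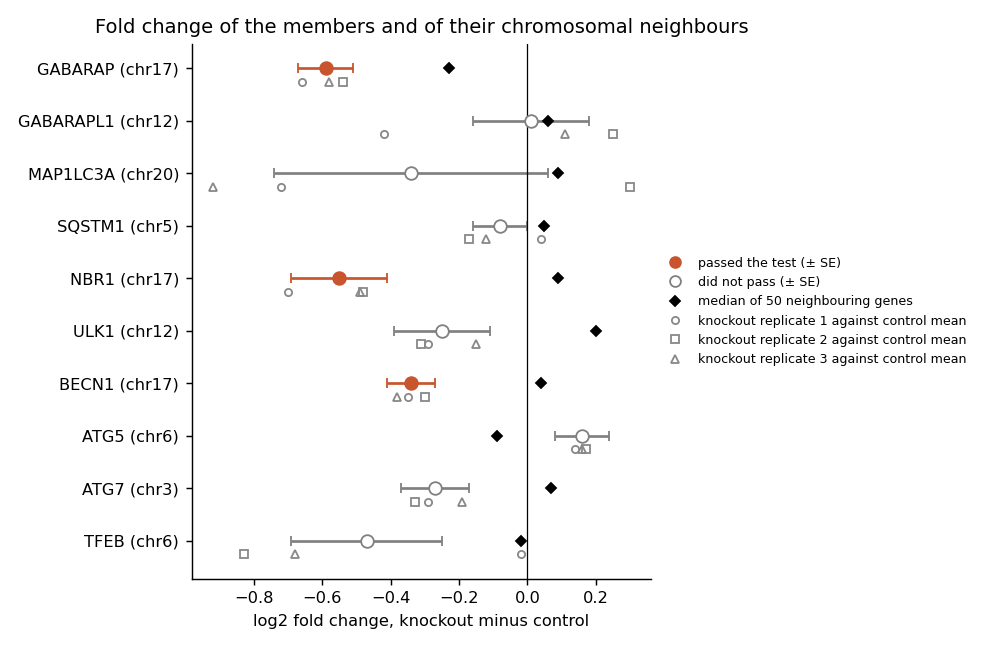
Log2 fold change (knockout minus control) of each member with its SE, filled where the test was passed, with the 3 knockout libraries against the control mean below it and the median of 50 neighbouring tested genes as a diamond. GABARAP, NBR1 and BECN1 lie left of their neighbours, whose medians are -0.23, 0.09 and 0.04, and the TFEB libraries are spread from -0.83 to -0.02.

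The 3 messages that fell are all encoded on chromosome 17, GABARAP on the short arm and BECN1 and NBR1 near each other on the long arm. The chromosome as a whole did not stand low: 113 of its 1309 tested genes (8.63%) fell, 181 rose, and the median log2 fold change was 0.06. Among the 50 tested genes nearest to GABARAP, over 1.11 Mb, the median was -0.23, with 11 falls and 2 rises, and 8 of the 50 had a lower fold change than GABARAP. Around NBR1 the median was 0.09 and 6 of 50 neighbours were lower. Around BECN1 it was 0.04 and 11 of 50 were lower, these windows covering much of the same genes. The neighbourhood of GABARAP was thus shifted in the direction of GABARAP, by less than its own fold change, and those of NBR1 and BECN1 were not. For the other members the median of the neighbours lay between -0.09 for ATG5 and 0.20 for ULK1.

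Levels per length, in FPKM (counts the authors scaled by gene length and library size), placed SQSTM1 and GABARAP far above the rest in the controls, at 104 ± 1.92 and 80.5 ± 5.08 FPKM. NBR1 followed at 23.3 ± 4.26, BECN1 at 16.2 ± 0.812, ULK1 at 9.83 ± 1.91 and GABARAPL1 at 7.74 ± 0.765 FPKM. ATG5 at 4.52 ± 0.124 and ATG7 at 4.02 ± 0.422 FPKM came next, and MAP1LC3A at 2.02 ± 0.753 and TFEB at 1.25 ± 0.0276 FPKM were lowest. Of neighbours in this order, ULK1 and GABARAPL1 overlapped between libraries, as did ATG5 and ATG7, while the others did not. In the knockout SQSTM1 stayed highest at 100 ± 2.64 FPKM, ahead of GABARAP at 54.6 ± 4.77 FPKM. The lengths implied by the FPKM values run from 1.22 kb for MAP1LC3A to 9.31 kb for ATG7, so that these levels depend on which isoforms the annotation lists. They departed most from the summed exons of GENCODE release 29 for MAP1LC3A, with 1.22 against 1.76 kb, and TFEB, with 7.11 against 5.65 kb.

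ATG8 proteins can be set side by side as a family of 7 genes, with GABARAPL2, MAP1LC3B, MAP1LC3B2 and MAP1LC3C beside the 3 members. Their summed level was 111, 112 and 128 FPKM in the controls and 69.5, 88.2 and 83.4 FPKM in the knockout. Every knockout library was below every control, and the mean went from 117 ± 9.62 to 80.3 ± 9.71 FPKM. GABARAP made up most of this sum in both groups, 68.7% ± 1.35 in the controls and 68.2% ± 2.43 in the knockout. The share of GABARAPL1 was 6.95%, 6.21% and 6.63% in the controls and 8.04%, 11% and 10.5% in the knockout. It was thus higher in all 3 knockout libraries, 9.83% ± 1.58 against 6.60% ± 0.371, with an exact two-sided permutation p = 0.1. This is the smallest that 3 against 3 allows, so that the design cannot pass 0.05. The level of GABARAPL1 itself was 7.74 ± 0.765 FPKM in the controls and 8 ± 2.15 FPKM in the knockout. Its higher share therefore went with the lower sum and not with more of its own message. The same permutation test gave 0.1 for the MAP1LC3B share and for the sum, and 0.3 to 0.9 for the other shares. The share of MAP1LC3B, the gene of the widely used autophagosome marker LC3B, was 11.7% ± 1.09 in the controls and 8.26% ± 0.390 in the knockout, without overlap. MAP1LC3B2 and MAP1LC3C each came to less than 1% of the sum in every library, and reads of MAP1LC3B2 and MAP1LC3B may have been split between these near-identical copies.

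**Figure D3:**
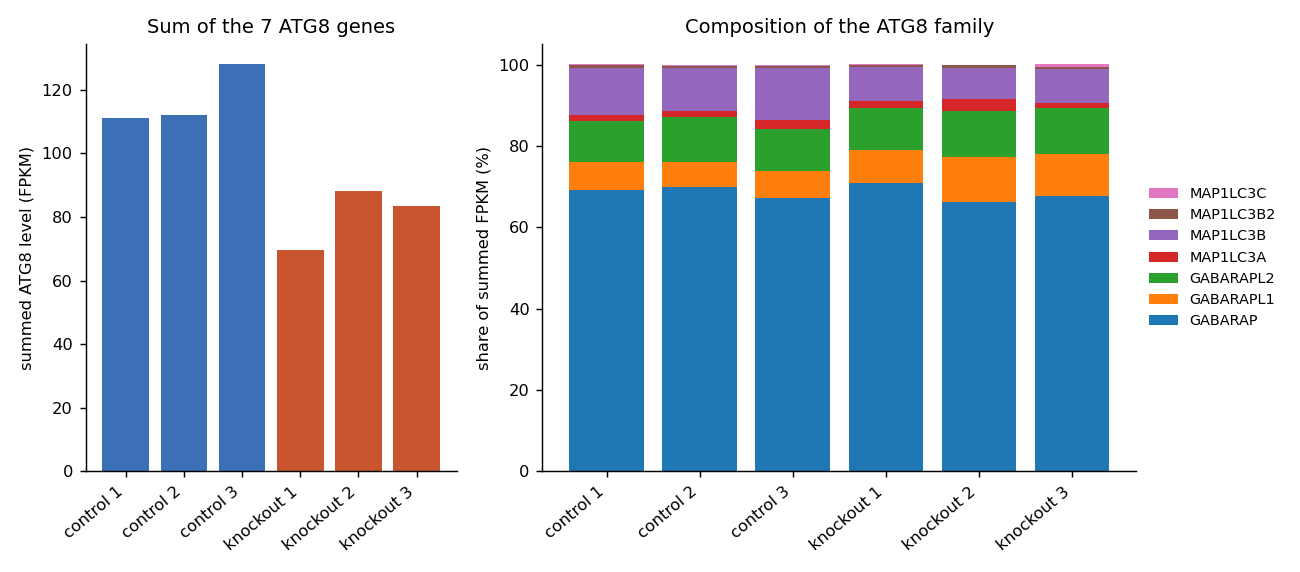
Left, summed level of the 7 ATG8 genes in FPKM in each library; right, the share of each gene in that sum in percent. The sum is 111 to 128 FPKM in the controls and 69.5 to 88.2 FPKM in the knockout, while the share of GABARAP averages 68.7% and 68.2% and that of GABARAPL1 is higher in each knockout library.

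As single genes, 2 of the 4 remaining family members fell. MAP1LC3B was at 68.8, 63.7 and 88.1 CPM in the controls and 33.1, 35.1 and 35.6 CPM in the knockout (log2 fold change -1.09, SE 0.12, adjusted p = 0.0011), and GABARAPL2 went from 39.4 ± 3.30 to 27.5 ± 3.48 CPM, with a log2 fold change of -0.52 (SE 0.12, adjusted p = 0.018). Both lie on chromosome 16, where the median of all tested genes was -0.49. The 50 genes nearest to GABARAPL2 had a median of -0.52, equal to its own value, and those nearest to MAP1LC3B a median of -0.50, against its -1.09. MAP1LC3B2 at 1.28 ± 0.132 and 0.800 ± 0.124 CPM (adjusted p = 0.13) and MAP1LC3C at 0.413 ± 0.171 and 0.300 ± 0.242 CPM (adjusted p = 0.7) did not pass.

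The other genes of the pathway were counted from lists arranged by step. Over 8 lists of autophagy machinery, 12 of 67 tested genes fell, 1 rose and 54 did not pass. Their median log2 fold change was -0.17, and 70.1% of values were below 0. Without the 2 genes of chromosome 16 it was 10 falls and 1 rise of 65. The share that fell was 17.9% with those 2 genes and 15.4% without them, against 11.5% of all tested genes. The share called in either direction, 19.4% with them and 16.9% without, was no higher than the 19.7% of all tested genes. With a mean count of at least 100, 14 of 64 machinery genes fell and 1 rose, beside 2229 falls and 1780 rises of 13897 genes. The shares by step below are set against all tested genes, which include genes with lower counts than this. The falls numbered 5 to 7 when control replicate 1, 2 or 3 or knockout replicate 2 or 3 was left out, and 17 without knockout replicate 1.

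**Figure D4:**
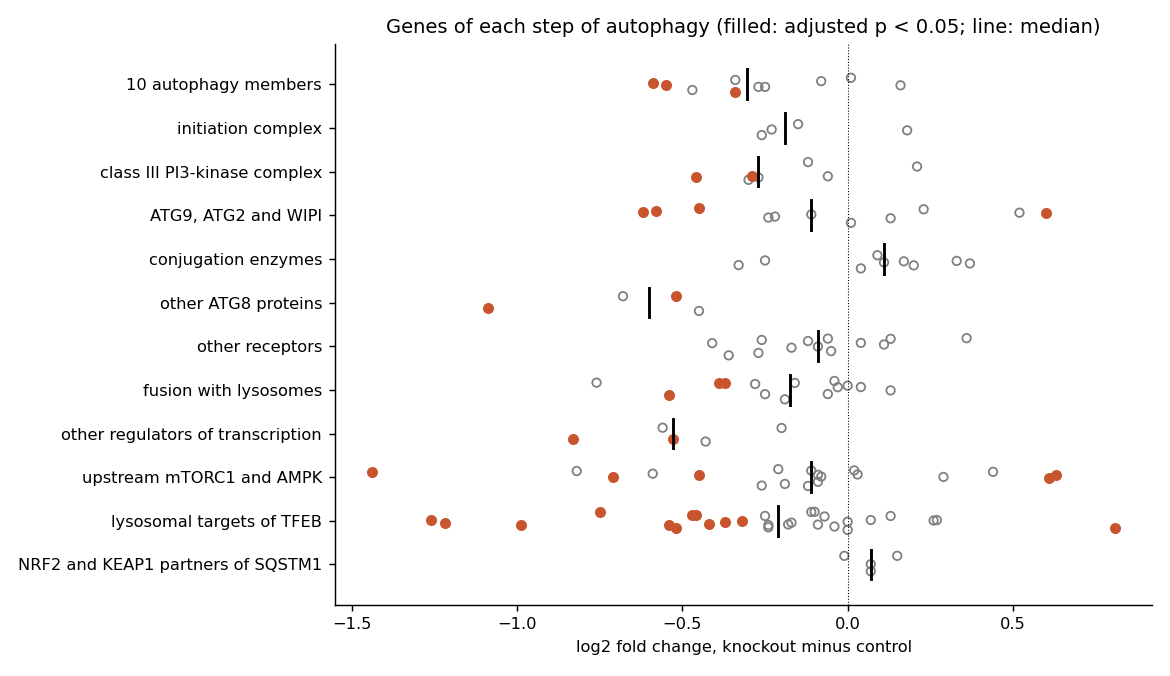
Log2 fold change (knockout minus control) of each tested gene in the lists by step of autophagy; filled points passed an adjusted p of 0.05 and black lines are list medians. The conjugation enzymes centre above 0, at 0.11, without a call. The lysosomal genes known as TFEB targets, the longest list, have 11 falls in 28 (39.3%, against 11.5% of all tested genes).

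In the initiation complex around ULK1 none (0) of 4 tested partners passed. Its scaffold subunits ATG13 and RB1CC1 were at 99.1 ± 7.09 and 82.3 ± 7.62 CPM in the controls and 82.9 ± 5.86 and 70.1 ± 5.90 CPM in the knockout (adjusted p = 0.074 and 0.14). The second ULK kinase, ULK2, was at 45.2 ± 1.69 and 40.6 ± 2.63 CPM (adjusted p = 0.22). Of 7 partners of BECN1 in the class III PI3-kinase complex, 2 fell (28.6%, against 11.5% of all tested genes) and 5 did not pass. ATG14, which directs the complex to autophagy, fell from 22.5 ± 1.31 to 16.3 ± 1.32 CPM (log2 fold change -0.46, adjusted p = 0.019), and the Beclin 1 regulator AMBRA1 from 58.1 ± 1.75 to 47.4 ± 0.874 CPM (log2 fold change -0.29, adjusted p = 0.02). Both calls held in 2 of the 6 fits that left out 1 library.

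Genes of membrane supply went both ways, with 3 falls and 1 rise among 11. The share that fell was 27.3%, against 11.5% of all tested genes. The lipid transfer protein gene ATG2B fell from 78.3 ± 7.58 to 52.2 ± 3.18 CPM (log2 fold change -0.58, adjusted p = 0.0045). Among the WIPI family, which binds the lipid mark made by the BECN1 complex, WDR45B rose from 124 ± 10.6 to 188 ± 12.6 CPM (log2 fold change 0.60, adjusted p = 0.0035), while WDR45 fell from 39.6 ± 4.20 to 29 ± 0.696 CPM (adjusted p = 0.014) and WIPI1 from 19.3 ± 3.38 to 12.6 ± 2.13 CPM (adjusted p = 0.042). The calls of ATG2B and WDR45B held with each library left out, that of WDR45 in 3 of 6 fits and that of WIPI1 in 0 of 6.

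Conjugation enzymes beside ATG5 and ATG7 gave 0 calls among 9, with a median of 0.11. The conjugating enzyme ATG3 was at 56.0 ± 2.02 and 64.3 ± 4.27 CPM (adjusted p = 0.11) and the protease ATG4D at 12.3 ± 1.25 and 9.81 ± 0.694 CPM (adjusted p = 0.13). Receptors other than SQSTM1 and NBR1 also gave 0 calls among 13. The mitophagy receptor BNIP3L was nearest to the threshold, at 90.3 ± 5.83 and 70.3 ± 9.96 CPM (adjusted p = 0.06), followed by the ferritin receptor NCOA4 at 199 ± 7.62 and 166 ± 18.1 CPM (adjusted p = 0.086). Of 14 genes of fusion with the lysosome 3 fell: the tethering subunits VPS18, from 46.8 ± 2.54 to 32.2 ± 5.44 CPM (adjusted p = 0.02), and VPS11, from 30.5 ± 2.00 to 23.3 ± 1.20 CPM (adjusted p = 0.02), and the autophagosomal SNARE STX17, from 53.5 ± 6.50 to 41.2 ± 0.119 CPM (adjusted p = 0.031). These 3 calls held in 1, 2 and 1 of the 6 fits that left out 1 library. They made up 21.4% of the fusion genes, against 11.5% of all tested genes that fell.

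Beside TFEB, its relative MITF fell from 31.1 ± 2.29 to 17.5 ± 1.68 CPM, at a log2 fold change of -0.83 (SE 0.11, adjusted p = 0.0018), the controls being at 28.8, 31.1 and 33.4 CPM and the knockout libraries at 19.1, 15.8 and 17.7 CPM. Knockout replicate 1 was the highest of its group for MITF too, but lay below all controls. TFE3 was at 124 ± 22 and 107 ± 4.90 CPM (adjusted p = 0.3), and TFEC was too low to test, with 22 counts in 1 control library and 0 in the other 5. FOXO3, a forkhead factor that also drives autophagy genes, fell from 31.6 ± 1.85 to 21.9 ± 1.77 CPM (log2 fold change -0.53, adjusted p = 0.0076). The MITF and FOXO3 calls held with each library left out.

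Among lysosomal and feedback genes that are well-known targets of the TFEB family, 11 of 28 fell (39.3%), 1 rose and 16 did not pass. Without 2 genes of chromosome 16 the counts were 9 falls (34.6%) and 1 rise of 26. Over all tested genes 11.5% fell. The falls with the smallest p included the cathepsins CTSD, from 834 ± 72.8 to 348 ± 81.5 CPM, and CTSB, from 555 ± 16.3 to 239 ± 16.9 CPM (adjusted p = 0.0018 and 1.1e-04). The chloride-proton exchanger CLCN7, on chromosome 16, fell from 87.7 ± 1.93 to 44.3 ± 1.51 CPM and the lysosomal peptidase TPP1 from 138 ± 2.88 to 95.2 ± 5.52 CPM (adjusted p = 1.2e-04 and 0.0022). The rise was RRAGD, a Rag GTPase of mTORC1 signalling, named after its values were seen, at 6.31, 7.61 and 11.3 CPM in the controls and 14.3, 15.3 and 14.7 CPM in the knockout (adjusted p = 0.032), a call that held in 2 of the 6 fits that left out 1 library. Binding of TFEB was not measured.

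Upstream of ULK1 and TFEB, 3 of 19 genes of mTORC1 and AMPK signalling fell and 2 rose. The share that fell, 15.8%, and the share called in either direction, 26.3%, lay near the 11.5% and 19.7% of all tested genes. Of the 3 falls, 2 were on chromosome 16, where 374 of 948 tested genes fell. TSC2, a brake on mTORC1 encoded on chromosome 16, fell from 100 ± 2.59 to 61.6 ± 5.74 CPM (adjusted p = 0.0013), and DDIT4, a stress-induced mTORC1 inhibitor, from 262 ± 94.6 to 96.2 ± 12.6 CPM (adjusted p = 0.005). The AMPK subunits PRKAG2, from 25.9 ± 0.897 to 40 ± 1.07 CPM, and PRKAA2, from 22.2 ± 2.02 to 33.9 ± 2.11 CPM, both rose (adjusted p = 0.0013 and 0.0048). Those 4 calls held with each library left out. Of 4 signalling partners of SQSTM1 none (0) passed, KEAP1 being at 82.4 ± 1.28 and 91.3 ± 12.5 CPM (adjusted p = 0.36) and the kinase TBK1, which phosphorylates SQSTM1, at 51.0 ± 3.26 and 53.5 ± 1.55 CPM (adjusted p = 0.59).

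Within the control group, replicate 3 was the highest library for 8 of the 10 members, all but ATG5 and ATG7, against 38.2% of all tested genes. The log2 ratio of control replicate 3 to the mean of the other 2 controls was 0.87 for MAP1LC3A, 0.47 for ULK1 and 0.45 for NBR1, with a median of 0.14 over the members and 0.00 over all tested genes. Over the 67 other machinery genes the median was 0.09, and replicate 3 was highest for 48 of them. Part of the difference between groups in ULK1 and NBR1 therefore lay in 1 control library, while GABARAP kept a log2 fold change of -0.54 (adjusted p = 0.0074) and BECN1 of -0.30 (adjusted p = 0.039) without it. Within the knockout group, replicate 1 departed most from the mean of the other 2 for TFEB, at a log2 ratio of 0.73, and for GABARAPL1, at -0.60. For MAP1LC3A the ratio was -0.53, but there replicate 2 was the library apart, at 3.04 CPM against 1.51 and 1.31 CPM. For BECN1, ATG5 and ATG7 the same ratio lay between -0.03 and -0.01.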

How the data were processed

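The deposited table gives, per gene and library, read counts that the authors deposited as whole numbers without normalization, and FPKM, which the authors scaled for gene length and library size. Per the labels' protocols, reads were filtered with Cutadapt, aligned with HISAT2 and quantified with StringTie. Versions per the submitters' processing notes were 2.0.4 for HISAT2 and 1.3.4d for StringTie, with build GRCh38; they also list edgeR. The annotation release and the strand setting were not given in the sources used here. Counts of 4 to 10 were even in 69.9% to 71.0% of cases and those above 100 in 49.5% to 50.1%. The range of 4 to 10 holds more even than odd numbers, so that part of this difference is fixed by the range. Whether mates were counted separately was not tested, and floors cover counting error only. Groups come from the titles. Low counts were removed by filterByExpr (minimum count 10, total 15). After TMM scaling, edgeR 4.0.16 (R 4.3.3) ran its quasi-likelihood test with genotype as the only term; the fit was tested on simulated data. SE is the fold change over the root of F. Alternatives used limma 3.58.1 and DESeq2 1.42.0. Members and lists were chosen with earlier results of these data known. Named are the members, IGF2BP3, paralogues of members and, per list, up to 4 called genes with the smallest adjusted p or else the 2 with the smallest p.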

Additional observations from a re-analysis of the deposited data

How the results depend on the processing

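Of the 17 alternatives, GABARAP passed in 16, BECN1 in 14 and NBR1 in 13, all with the direction kept; the exceptions common to these 3 genes came from the test against a minimum fold of 1.5, where 0 members passed. Without 1 library, 1 to 4 members fell, the lowest without knockout replicate 3, and 0 rose. Leaving out control replicate 3 and knockout replicate 1 together, chosen after seeing the data, gave 5 falls and 1 rise, the additions being TFEB (-0.74), SQSTM1 (-0.12) and GABARAPL1 (0.26). NBR1 was then at -0.31. In no other fit did a member pass as a rise. The cause of these changes was not tested.

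The sign of GABARAPL1 turned with limma-voom and TMM (-0.02), the replicate block (-0.01), the fit without chromosomes 16 and Y (-0.01), and without knockout replicate 2 (-0.13), knockout replicate 3 (-0.04) or control replicate 2 (-0.06), and over the fits without 1 library it ran from -0.13 to 0.19. MAP1LC3A went to 0.00 without control replicate 3 and to 0.17 without that library and knockout replicate 1, and ran down to -0.81 without knockout replicate 2. None of these passed the test.

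For the other machinery genes, the minimum fold left 1 fall and 0 rises, DESeq2 gave 2 rises and limma on log2(FPKM + 1) gave 2. Without 1 library there were 5 to 17 falls and 1 to 3 rises, and without both libraries named above 17 falls and 4 rises. Over all genes (1652 rises, 2311 falls) there were 1055 rises with no filter, 259 rises and 671 falls with the minimum fold, and 3102 rises and 3555 falls without both libraries. The excess of falls was gone with limma-voom and quantile normalization (2340 rises, 2313 falls) and on FPKM (1818 and 1793). Without 1 library there were 773 to 2274 rises and 1410 to 3064 falls.

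Same-numbered libraries did not deviate together (correlations 0.0287, -0.065 and 0.000114). The titles give only the number, and these values cannot show whether libraries were handled in pairs. The replicate block gave 1146 rises and 1855 falls over all genes, and 3 falls among the members. The GABARAPL1 share kept its direction throughout, 2.66 to 4.14 percentage points without 1 library and 5.37 on TMM-scaled counts.

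Counts were low for MAP1LC3A, MAP1LC3B2 and MAP1LC3C. Protein and autophagic flux were not measured, and message levels do not give either.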
